A study of Mus musculus with 12 samples.

Results

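The 10 skeletal muscle genes Ttn, Ckm, Acta1, Actc1, Myog, Myod1, Myl1, Tnnt3, Musk and Ryr1 were followed through RNA sequencing of thymic epithelium. They were chosen by name, with earlier results of these data known, as genes of the muscle fibre, the neuromuscular junction and muscle transcription. They were found by matching gene identifiers to symbols, which gave 10 of the 50600 identifiers in the tables. The libraries hold polyadenylated RNA of medullary thymic epithelial cells (mTECs) from the thymus of mice 6 to 8 weeks old. The cells are labelled by their level of MHC class II, and 6 libraries are of the high kind (mTEC hi) and 6 of the low kind (mTEC lo). The mice carried the strain name B6.B6CB-Psmb11tm1Smta, either Psmb11-/- (Psmb11-deficient, without the thymic proteasome subunit beta5t) or Psmb11+/+ (WT). For each cell type all labels named the same genotype in 2 Psmb11-deficient libraries (titles numbered 1 and 2) and 2 WT libraries (titles numbered 2 and 3). The remaining 2 libraries per cell type had a title that contradicted source name and strain. They are called conflicting 1 (title WT, other labels knockout) and conflicting 3 (title knockout, other labels WT), and they entered the cell type comparison only.

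The thymic medulla makes proteins of other organs so that developing T cells that react to them can be removed or turned into regulatory T cells. Skeletal muscle is part of this display. MyoD and myogenin, the proteins of Myod1 and Myog, are transcription factors that bind E-boxes in DNA and switch on muscle genes, and the thymus is known to hold rare muscle-like (myoid) cells and muscle-like epithelial cells. Several muscle proteins, among them the acetylcholine receptor, MuSK, titin and the ryanodine receptor, are targets of autoantibodies in myasthenia gravis, a disease with a known link to the thymus.

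Gene reads per library numbered at least 38791960 and at most 86793594. Aire, the regulator of tissue-restricted antigens, averaged 1977 ± 185 CPM (a gene's share of the library's gene reads on a fixed scale, adjusted by TMM) in mTEC hi, with 17.6 ± 5.35 CPM in mTEC lo (SD, n = 6 each), and the epithelial keratin Krt8 averaged 1505 ± 72.0 CPM in mTEC hi, against 1593 ± 65.6 CPM in mTEC lo. The keratin Krt5 averaged 716 ± 84.6 CPM in mTEC hi, against 4514 ± 422 CPM in mTEC lo, and Krt14 274 ± 17.7 against 2058 ± 165 CPM. By edgeR at an adjusted p below 0.05, 7 of 12 mTEC markers were higher in mTEC hi, 4 lower and Krt8 was neither. Over all genes tested 44.2% were higher and 38.0% lower. Psmb11 lay between 0.846 and 1.63 CPM in the 6 libraries with a knockout title and between 7.10 and 12.2 CPM in the 6 with a WT title. It therefore went with the title in all 4 conflicting libraries, and these values placed no library in a group. No label states that the libraries of a group are from different mice, and p-values may thus reflect technical spread alone.

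The promoters of 8 of the 10 genes were matched in the RefSeq promoter table (build GRCm38.p6). The 4 printed here hold the motif letters that the muscle factors are known for and belong to genes with different patterns between the cell types. Each line gives the 150 bases before the start that RefSeq gives, on the gene's strand, with capitals for a match to an E-box (CANNTG), a CArG box (the site of serum response factor) or TATAAA.
Myog, chr1:134289854-134290003, plus strand: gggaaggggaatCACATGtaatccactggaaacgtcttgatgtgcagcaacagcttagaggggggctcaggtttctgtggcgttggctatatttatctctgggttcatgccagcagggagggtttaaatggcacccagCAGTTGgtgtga
Musk, chr4:58285812-58285961, plus strand: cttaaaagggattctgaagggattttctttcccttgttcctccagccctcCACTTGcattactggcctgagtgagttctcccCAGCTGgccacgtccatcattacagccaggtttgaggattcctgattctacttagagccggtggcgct
Ttn, chr2:76982548-76982697, minus strand: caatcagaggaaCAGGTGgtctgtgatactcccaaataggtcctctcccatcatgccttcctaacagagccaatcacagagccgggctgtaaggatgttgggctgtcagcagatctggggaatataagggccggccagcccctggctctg
Acta1, chr8:123894776-123894925, minus strand: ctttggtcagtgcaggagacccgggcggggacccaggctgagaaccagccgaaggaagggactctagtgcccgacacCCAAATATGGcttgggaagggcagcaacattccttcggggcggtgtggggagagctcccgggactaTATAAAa

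E-boxes lay in 3 of the 8 member windows, those of Myog (2), Musk (2) and Ttn (1), against 47.7% of 32817 promoter windows of the same length in the table. A CArG box lay in 2 of the 8, in Acta1 as CCAAATATGG and in Actc1 as CCAAATAAGG, against 0.917% of all windows. TATAAA was found in 2 of the 8 (Acta1 and Myl1) and in 7.58% of all windows. The MEF2 site, searched as YTAWWWWTAR (Y is C or T, W is A or T, R is A or G), matched none of the 8 and 1.67% of all windows. In the Myog window ctatatttat misses that pattern by its last letter alone, and such near matches were not counted. The gene starts in GENCODE M21, the annotation behind the coordinates of the members, differ from these for all but Ttn: 6 of the 8 windows hold 2 to 87 exon bases of their own gene. Among them are the last 15 bases for Myog, which include its second E-box (CAGTTG), and the last 2 for Musk, while the Acta1 window ends 24 bases before the annotated gene. The Ckm window (chr7:19410944-19411093) lies well inside the annotated gene, which starts at 19404776. The Actc1 and Myl1 windows also lie inside theirs. Both strands were searched, and the E-box CAGCTG of Musk is also counted as CANNTG. Of the genes with an E-box, Ttn was higher in mTEC hi than in mTEC lo, Musk was lower and Myog did not pass the test, and of those with a CArG box Actc1 was higher and Acta1 did not pass. A match of letters shows no binding.

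All 10 genes were read in both cell types. In mTEC hi against mTEC lo, 6 were higher (Ttn, Ckm, Actc1, Myod1, Tnnt3 and Ryr1), 1 was lower (Musk), and Acta1, Myog and Myl1 did not pass the test (edgeR quasi-likelihood test with Benjamini-Hochberg adjustment over all genes, threshold 0.05). The background was high: 82.1% of the 23923 genes tested were called, 44.2% as higher and 38.0% as lower, so the number called says little about these 10. Myod1 passed the filter on low counts through mTEC hi alone and so had to differ, since no mTEC lo library reached the minimum of 0.165 CPM (10 reads at the median depth), as was the case for 11.3% of all genes tested. Scaling by library size alone gave 12907 genes higher and 6347 lower, against 10569 higher and 9080 lower with TMM. The median log2 fold change of the 10 members, 1.68, stood beside 0.08 over all genes tested. The median over all genes depended on scaling and filter: it was 0.37 when counts were scaled by library size alone (members 1.97), 0.58 over the 35769 genes that DESeq2 fitted (members 1.74) and 0.78 over 42255 genes with no filter (members 1.68). Since these are bulk libraries, more cells with muscle transcripts and more such RNA per cell cannot be told apart.

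The 2 myogenic factors of the MyoD family among the members had different patterns. Myod1, a factor that can turn fibroblasts into muscle cells, had 1.34 CPM in the lowest, 1.70 CPM in the median and 2.22 CPM in the highest mTEC hi library. In mTEC lo it had no read in 3 libraries, 1 read in 2 and 2 reads in 1. The sums were 674 reads in mTEC hi and 4 reads in mTEC lo, a ratio of 149 after scaling (95% interval 58.0 to 549, exact, counting error only). All 6 mTEC hi libraries lay above all 6 of mTEC lo, which was fixed in advance because Myod1 passed the filter through mTEC hi alone. The ratio describes the reads and is no test, and its interval leaves out the spread between libraries. The fitted fold change of so few reads depends on the prior count.

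Myog, myogenin, which acts later than MyoD when myoblasts differentiate, had 6.52, 7.18 and 7.83 CPM (lowest, median, highest) in mTEC hi, against 7.12, 7.93 and 9.46 CPM in mTEC lo. The ranges overlapped, and the log2 fold change of -0.16 (SE 0.09) had an adjusted p of 0.13 by edgeR. It was 0.13, above 0, when counts were scaled by library size alone, and its adjusted p was 0.046 without the mTEC lo library WT 3. The mean CPM of Myod1 was 24.3% of that of Myog in mTEC hi, a ratio of reads that takes no account of length. Per length the means there were 1.62 ± 0.35 TPM for Myod1 and 8.77 ± 0.70 TPM for Myog (SD). In mTEC lo 2770 reads of Myog stood beside the 4 of Myod1.

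**Figure D1:**
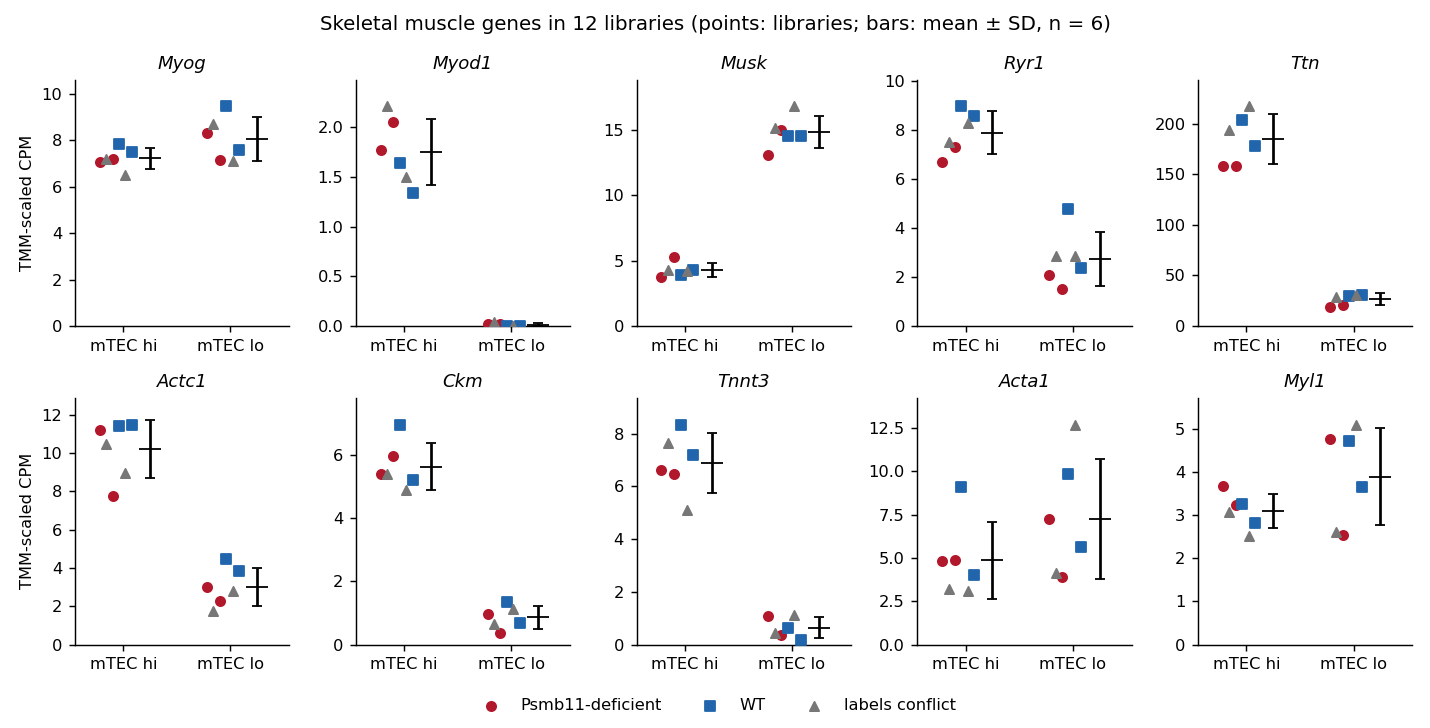
TMM-scaled CPM (y axis, from 0, own scale per gene) of the 10 genes in each mTEC hi and mTEC lo library, with symbols for the genotype labels and the mean ± SD of 6 libraries. Ttn lies between 158 and 217 CPM in mTEC hi and between 18.4 and 31.1 CPM in mTEC lo, while Musk is at 3.74 to 5.29 CPM in mTEC hi, against 13.1 to 16.8 CPM in mTEC lo.

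Musk encodes the receptor tyrosine kinase that gathers acetylcholine receptors under the nerve ending. It was the only member called lower, with 3.74, 4.25 and 5.29 CPM in the lowest, median and highest mTEC hi library and 13.1, 14.7 and 16.8 CPM in mTEC lo. The ranges did not overlap (log2 fold change -1.79, SE 0.10, edgeR adjusted p = 1.3e-11), a level 3.47 times higher in mTEC lo. The share of all genes whose ranges stayed apart was not counted. Its relative spread was small in both, with a coefficient of variation of 12.7% in mTEC hi and 8.10% in mTEC lo.

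Ryr1, the calcium release channel of the sarcoplasmic reticulum, had 6.69, 7.91 and 8.98 CPM (lowest, median, highest) in mTEC hi and 1.52, 2.61 and 4.77 CPM in mTEC lo. No mTEC lo library reached the mTEC hi range, though the share of all genes that separate so was not counted. The log2 fold change was 1.57 (SE 0.16, edgeR adjusted p = 6.8e-08). Antisense transcripts overlap 3.96% of its exon bases.

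Titin, the giant spring protein of the sarcomere and product of Ttn, had the highest CPM of the 10, which for so long a gene is a count and not a level per length. Ttn had 158, 186 and 217 CPM (lowest, median, highest) in mTEC hi and 18.4, 29.2 and 31.1 CPM in mTEC lo. The log2 fold change was 2.81 (SE 0.07, edgeR adjusted p = 2.0e-16). Ttn made up 77.9 ± 2.69% of the summed CPM of the 10 genes in mTEC hi and 39.1 ± 5.04% in mTEC lo (SD, n = 6 each). The sum of the 10 was 237 ± 25.1 CPM in mTEC hi, against 67.9 ± 10.7 CPM in mTEC lo, and without Ttn it was 51.8 ± 5.34 CPM in mTEC hi, against 41.3 ± 6.95 CPM in mTEC lo.

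Besides Ttn, the sarcomeric genes Actc1 and Tnnt3 and the metabolic gene Ckm were higher in mTEC hi. Actc1, the alpha actin of heart and of developing skeletal muscle, had 7.76, 10.8 and 11.5 CPM (lowest, median, highest) in mTEC hi and 1.75, 2.91 and 4.46 CPM in mTEC lo (log2 fold change 1.79, SE 0.15, edgeR adjusted p = 3.5e-09). Tnnt3, the fast-fibre troponin T, had 5.09, 6.89 and 8.34 CPM in mTEC hi, against 0.181, 0.538 and 1.13 CPM in mTEC lo (3.42, SE 0.30, adjusted p = 9.2e-09). In Actc1 and in Tnnt3 the lowest mTEC hi library lay above the highest mTEC lo library. The share of all genes that separate the cell types in this way was not counted, so this says little about these 2 genes.

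Ckm, muscle creatine kinase, which buffers ATP in the fibre, had 4.90, 5.40 and 6.97 CPM in mTEC hi, against 0.380, 0.824 and 1.36 CPM in mTEC lo (log2 fold change 2.71, SE 0.22, edgeR adjusted p = 3.3e-09). The antisense gene A930016O22Rik covers 15.5% of the Ckm exon bases. The deposited column that ignores strand held 2501 Ckm reads over the 12 libraries and the sum of the strand columns 5461, and since the forward column held 50.4% to 50.8% of the stranded reads, sense and antisense cannot be told apart. With the sum of the strand columns Ckm averaged 12.2 ± 1.89 CPM in mTEC hi, against 1.97 ± 0.74 CPM in mTEC lo (n = 6 each, ± SD), and the log2 fold change was 2.65.

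Acta1 and Myl1 went the other way in their means without passing the test. Acta1, the main actin of adult skeletal fibres, had 3.06, 4.42 and 9.11 CPM (lowest, median, highest) in mTEC hi and 3.90, 6.43 and 12.7 CPM in mTEC lo. Its log2 fold change was -0.61 (SE 0.29, edgeR adjusted p = 0.063). Without the mTEC hi library WT 2 the adjusted p was 0.013, and without the mTEC lo libraries Psmb11-deficient 2, WT 3 or conflicting 1 it was 0.018, 0.023 and 0.031. The log2 fold change of Acta1 was nearer to 0 in other fits, at -0.25 (adjusted p = 0.27 by edgeR) without the mTEC lo library conflicting 3, -0.21 (0.46) in the 8 libraries with undisputed genotype and -0.32 (0.32) when counts were scaled by library size alone. Myl1, an alkali light chain of fast myosin, had 2.53, 3.16 and 3.67 CPM in mTEC hi, against 2.54, 4.19 and 5.11 CPM in mTEC lo (-0.34, SE 0.18, edgeR adjusted p = 0.098). For Myl1 the adjusted p was 0.012 and 0.032 without the mTEC lo libraries Psmb11-deficient 2 and conflicting 1, while the log2 fold change was -0.19 (0.33) without conflicting 3 and -0.05 (0.82) when counts were scaled by library size alone. The ranges overlapped in both genes. The actin genes have near-identical coding sequences, so reads of Acta1 and Actc1 may be lost or shared among them: Acta2, the smooth muscle actin, stood at 55.4 ± 4.25 CPM in mTEC hi, against 731 ± 101 CPM in mTEC lo (n = 6 each, ± SD). The part of Acta2 in the Acta1 counts was not tested.

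**Figure D2:**
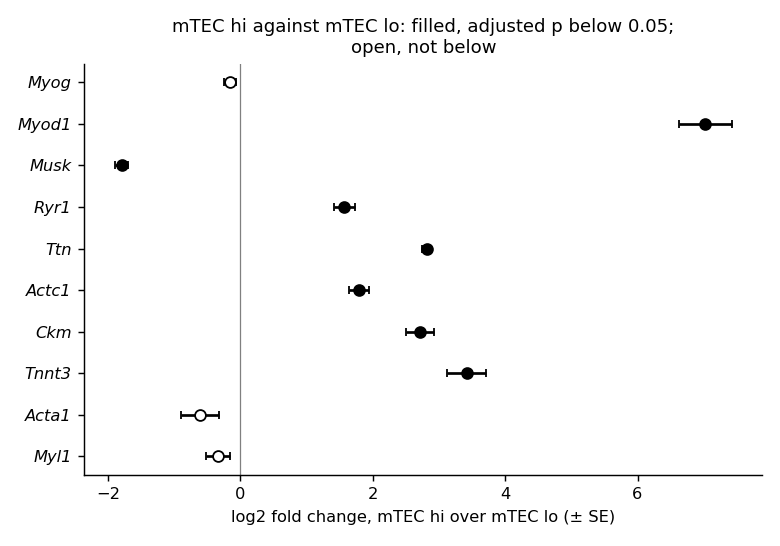
Log2 fold change of mTEC hi over mTEC lo (x axis) with its standard error for each of the 10 genes, from the fit over 12 libraries. Filled points passed the adjusted threshold: 6 lie right of 0, among them Myod1 at a fitted value of 7.02 that is no bound, since it had 4 reads in mTEC lo and passed the filter through mTEC hi alone, and Musk lies left of 0 at -1.79, while Myog, Acta1 and Myl1 are open.

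Levels can be compared between genes only per length, and the deposited TPM gave a different order in each cell type. In mTEC hi the mean TPM ran from Ckm (17.4 ± 3.26), Actc1 (12.2 ± 2.07), Tnnt3 (9.08 ± 1.51) and Myog (8.77 ± 0.70) through Myl1 (6.15 ± 1.02), Acta1 (5.87 ± 2.80) and Ttn (5.02 ± 1.41) to Musk (2.03 ± 0.26), Myod1 (1.62 ± 0.35) and Ryr1 (1.09 ± 0.24; SD, n = 6 each). In that order only Myog and Myl1, and Ttn and Musk, were neighbours whose intervals of mean ± SD stayed apart. In mTEC lo Myog came first at 7.72 ± 1.34 TPM, with Acta1 (7.40 ± 3.72), Myl1 (6.70 ± 2.29) and Musk (5.93 ± 0.54) within the spread of each other. Actc1 followed at 3.14 ± 1.14 TPM, then Ckm at 2.35 ± 0.75, Tnnt3 at 1.2 ± 0.99, Ttn at 0.49 ± 0.10, Ryr1 at 0.39 ± 0.21 and Myod1 at 0.015 ± 0.025. There only Musk and Actc1, and Ryr1 and Myod1, were neighbours with separate intervals. The length that RSEM assigned to Ttn varied between 46916 and 80517 bases over the libraries, which moves its TPM, while that of Myog was 1495 bases in all. The expected count of RSEM was 0.938 of the counted reads for Ckm and 0.277 for Tnnt3, against 0.507 to 0.535 in whole libraries. RSEM and the read counts thus differ most for these genes, and their places in the order may hold for the RSEM values only.

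The other genes of the pathway were taken from 7 lists of skeletal muscle genes, 102 genes in all. Of the 97 that passed the filter on low counts, 74 were called higher in mTEC hi, 20 lower and 3 were not called. Over all genes tested 44.2% were called higher and 38.0% lower, and the counts called in each list below stand beside these shares. The median log2 fold change of the 97 was 2.07 (0.08 over all genes tested). Of the 97, 9 (9.28%) passed through mTEC hi alone and so had to differ, namely Cacna1s, Xirp2, Myl2, Myl3, Myf5, Myh2, Actn2, Ckmt2 and Myoz1, and none passed through mTEC lo alone. With no filter all 102 had a value, of which 78 were called higher and 20 lower, beside 15082 higher and 9252 lower of 42255 genes. The median was then 2.22, beside 0.78 over all genes. The lists were drawn up with earlier results of these data known. Their highest medians were those of thin filament and Z disc (3.15, 15 higher and 3 lower of 18) and thick filament (2.70, 13 higher and 3 lower of 16). Both lists hold genes that passed through mTEC hi alone. These are Xirp2, Actn2 and Myoz1 in the first and Myh2, Myl2 and Myl3 in the second. No median was worked out without them, so the order of the lists is partly fixed in advance.

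Of the 15 regulators, 8 were called higher and 7 lower. Myf5, of the same family as Myod1, averaged 0.231 ± 0.109 CPM in mTEC hi, against 0.0324 ± 0.0265 CPM in mTEC lo (log2 fold change 2.76, 83 and 11 reads). Pax7, the transcription factor of muscle stem cells, averaged 12.6 ± 0.60 CPM in mTEC hi, against 0.449 ± 0.146 CPM in mTEC lo (4.82), Mstn, myostatin, an inhibitor of muscle growth, 18.4 ± 2.72 CPM in mTEC hi, against 0.575 ± 0.127 CPM in mTEC lo (4.99), and Mymk, myomaker, which fuses myoblasts, 5.0 ± 0.87 CPM in mTEC hi, against 1.17 ± 0.42 CPM in mTEC lo (2.12; ± SD over 6 libraries each). Eya4, a transcriptional cofactor, was lower, at 91.2 ± 5.58 CPM in mTEC hi, against 274 ± 11.7 CPM in mTEC lo (-1.59).

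Of the 16 thick filament genes 13 were called higher and 3 lower. Myh3, the embryonic myosin heavy chain, averaged 57.6 ± 9.39 CPM in mTEC hi, against 0.524 ± 0.230 CPM in mTEC lo (6.77 on the log2 scale), Myh8, the perinatal one, 28.5 ± 6.87 CPM in mTEC hi, against 0.139 ± 0.082 CPM in mTEC lo (7.63), and Myl3, a slow light chain, 5.62 ± 0.67 CPM in mTEC hi, against 0.0464 ± 0.0181 CPM in mTEC lo (6.86; ± SD over 6 libraries each). Mybpc1, slow myosin binding protein C, was lower, at 20.7 ± 1.94 CPM in mTEC hi, against 32.4 ± 5.49 CPM in mTEC lo (-0.63, and -0.35 when counts were scaled by library size alone).

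In the thin filament and Z disc, Tnni1, slow troponin I, averaged 23.9 ± 1.51 CPM in mTEC hi, against 1.02 ± 0.35 CPM in mTEC lo (log2 fold change 4.56) and Myot, myotilin of the Z disc, 11.4 ± 1.57 CPM in mTEC hi, against 0.219 ± 0.167 CPM in mTEC lo (5.71). The tropomyosins Tpm1 and Tpm2, which many cell types also make, were lower: 145 ± 4.50 CPM in mTEC hi, against 452 ± 18.3 CPM in mTEC lo for Tpm1 (-1.64), and 137 ± 7.98 CPM in mTEC hi, against 537 ± 48.1 CPM in mTEC lo for Tpm2 (-1.97; SD, n = 6 each).

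Of the 15 excitation-contraction genes 12 were called higher and 2 lower. Jph1, junctophilin of the triad where Ryr1 sits, averaged 140 ± 9.88 CPM in mTEC hi, against 41.8 ± 1.96 CPM in mTEC lo (log2 fold change 1.74), and Jsrp1, a triad protein, 2.72 ± 0.44 CPM in mTEC hi, against 0.104 ± 0.046 CPM in mTEC lo (4.68). Cacna1s, the voltage sensor that opens Ryr1, averaged 7.44 ± 0.45 CPM in mTEC hi, against 0.0243 ± 0.0254 CPM in mTEC lo (8.20), and its log2 fold change was 5.19 with the strand columns, which held 4.0 times as many reads for it. Cacnb1, a channel subunit that other cells share, had -0.34, and -0.06 when counts were scaled by library size alone.

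Of the 10 other neuromuscular junction genes 7 were called higher, 1 lower (Agrn) and 2 not. Chrna1, the receptor subunit that most myasthenia autoantibodies bind, averaged 14.3 ± 1.28 CPM in mTEC hi, against 2.21 ± 0.17 CPM in mTEC lo (log2 fold change 2.69). Chrng, the fetal receptor subunit, averaged 6.89 ± 0.97 CPM in mTEC hi, against 0.257 ± 0.093 CPM in mTEC lo (4.75), and Chrne, the adult subunit, 5.55 ± 1.01 CPM in mTEC hi, against 0.246 ± 0.076 CPM in mTEC lo (4.48; ± SD over 6 libraries each). Agrn, agrin, the nerve signal that activates MuSK through Lrp4, was lower, at 135 ± 11.2 CPM in mTEC hi, against 665 ± 49.99 CPM in mTEC lo (-2.30). Colq, the collagen tail of the junction's acetylcholinesterase, was at 201 ± 12.4 CPM in mTEC hi, against 154 ± 13.9 CPM in mTEC lo (0.38, and 0.67 when counts were scaled by library size alone).

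All 11 genes of muscle metabolism were called higher. Fabp3, a fatty acid carrier, averaged 6.20 ± 0.77 CPM in mTEC hi, against 0.144 ± 0.097 CPM in mTEC lo (log2 fold change 5.42), Ampd1, muscle AMP deaminase, 8.31 ± 0.69 CPM in mTEC hi, against 0.348 ± 0.213 CPM in mTEC lo (4.60), Eno3, muscle enolase, 59.4 ± 2.12 CPM in mTEC hi, against 18.7 ± 2.23 CPM in mTEC lo (1.67), and Pfkm, muscle phosphofructokinase, 55.6 ± 1.94 CPM in mTEC hi, against 28.4 ± 1.60 CPM in mTEC lo (0.97; ± SD over 6 libraries each). Of the 12 sarcolemma and turnover genes tested 8 were called higher and 4 lower. Klhl40, a stabiliser of thin filaments, averaged 7.67 ± 0.55 CPM in mTEC hi, against 0.174 ± 0.077 CPM in mTEC lo (5.45) and Sgca, alpha sarcoglycan, 3.61 ± 0.55 CPM in mTEC hi, against 0.260 ± 0.096 CPM in mTEC lo (3.78). Dmd, dystrophin, was lower, at 13.8 ± 1.27 CPM in mTEC hi, against 42.4 ± 5.58 CPM in mTEC lo (-1.62), as was Fbxo32, the atrophy ubiquitin ligase atrogin-1, at 69.2 ± 2.96 CPM in mTEC hi, against 290 ± 14.2 CPM in mTEC lo (-2.07).

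**Figure D3:**
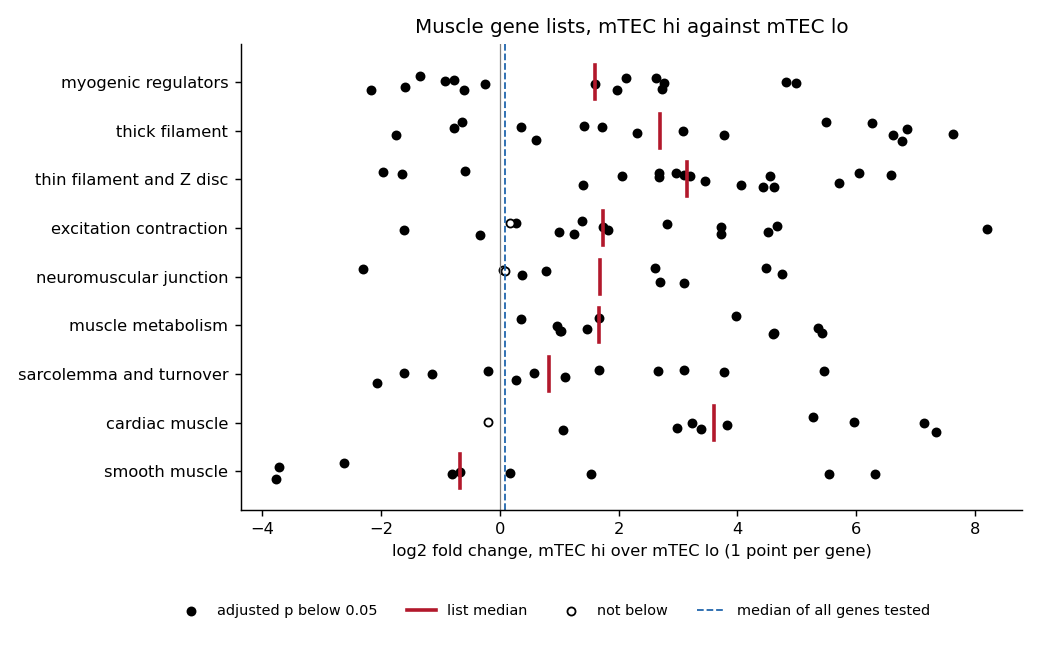
Log2 fold change of mTEC hi over mTEC lo (x axis) for each tested gene of 9 muscle lists (rows), with the list median as a red bar and the median of all genes tested (0.08) as a dashed line. The median lies between 0.84 and 3.15 in the 7 skeletal muscle lists, at 3.61 in the cardiac list and at -0.66 in the smooth muscle list, and all rows but muscle metabolism hold genes left of 0. Genes that passed the filter through mTEC hi alone count in these medians.

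Marker lists of other cells were read beside the muscle genes. The summed level of 10 fibroblast and pericyte genes was 915 to 960 CPM in mTEC hi, against 928 to 1052 CPM in mTEC lo, and of 7 endothelial genes 44.7 to 68.7 CPM in mTEC hi, against 46.7 to 74.7 CPM in mTEC lo. The sum of 8 thymocyte genes was 64.6 to 158 CPM in mTEC hi, against 31.0 to 79.0 CPM in mTEC lo, and that of 9 genes of other blood cells 67.8 to 91.6 CPM in mTEC hi, against 26.2 to 36.6 CPM in mTEC lo. Most of the fibroblast and pericyte sum was Rgs5, at 648 ± 22.7 CPM in mTEC hi, against 662 ± 52.8 CPM in mTEC lo (± SD over 6 libraries each), and the other 9 genes of that list were called in both directions. Higher were 5 of the 10 (Pdgfrb, Col1a1, Col1a2, Cspg4 and Thy1), with log2 fold changes such as 3.49 for Pdgfrb and 3.34 for Col1a1, and lower were 4 (Pdgfra, Col3a1, Dcn and Lum), such as Dcn at -2.19. Of the endothelial list 0 of 7 genes were called higher and 3 lower, of the thymocyte list 5 of 8 higher, and of the other blood cell list 8 of 9 higher and 1 lower. Over all genes tested 44.2% were called higher and 38.0% lower. No gene of these lists was at 0 in all libraries of a cell type. Their part in the muscle gene levels was not tested.

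Within mTEC lo, 4 of the 10 members had the same 3 libraries on top, a pattern seen after the values were known and given without a test. How many of all genes had these 3 libraries on top was not counted, so 4 of 10 cannot be set against a background. Acta1 was highest in conflicting 3, WT 2 and Psmb11-deficient 1, at 12.7, 9.82 and 7.22 CPM, and was at 5.64, 4.11 and 3.90 CPM in WT 3, conflicting 1 and Psmb11-deficient 2. Myl1 had the same 3 libraries on top (5.11, 4.73 and 4.76 CPM, against 3.65, 2.62 and 2.54 CPM in the same order), as did Ckm (1.13, 1.36 and 0.978 CPM, against 0.671, 0.640 and 0.380 CPM). Tnnt3 had 1.13, 0.625 and 1.09 CPM in those 3 libraries and 0.181, 0.452 and 0.363 CPM in the others. Myh1, a myosin heavy chain of adult fast fibres that was added after its values were seen, had 4.45, 1.5 and 2.61 CPM there and 0.163, 0.226 and 0.501 CPM in the others.

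The other members read in mTEC lo did not share this order. Ttn had 30.9, 29.5 and 18.4 CPM in the 3 libraries and 31.1, 29.0 and 20.9 CPM in the others, and Ryr1 2.85, 4.77 and 2.06 CPM in the 3, against 2.38, 2.84 and 1.52 CPM. Actc1 had 2.78, 4.46 and 3.03 CPM in the 3 libraries and 3.83, 1.75 and 2.28 CPM in the others, so WT 3 stood above 2 of the 3. Mylpf, a light chain of fast myosin, had 7.34, 5.54 and 6.07 CPM in the 3 and 3.46, 3.67 and 5.56 CPM in the others. Myog had 7.12, 9.46 and 8.29 CPM in the 3 libraries and 7.56, 8.70 and 7.13 CPM in the others, and Musk 16.8, 14.5 and 13.1 against 14.5, 15.1 and 14.95 CPM. The embryonic myosin Myh3 was at 0.309, 0.232 and 0.683 CPM in the 3 and at 0.435, 0.791 and 0.691 CPM in the others. The 3 libraries are 1 of each label class, so the split does not follow genotype by the labels. The fibroblast and pericyte sum was 963, 963 and 1052 CPM in the 3 libraries and 932, 928 and 983 CPM in the others, and the smooth muscle sum 1537, 1435 and 1312 against 1129, 1235 and 1372 CPM. The part of muscle tissue or of these other cells was not tested.

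**Figure D4:**
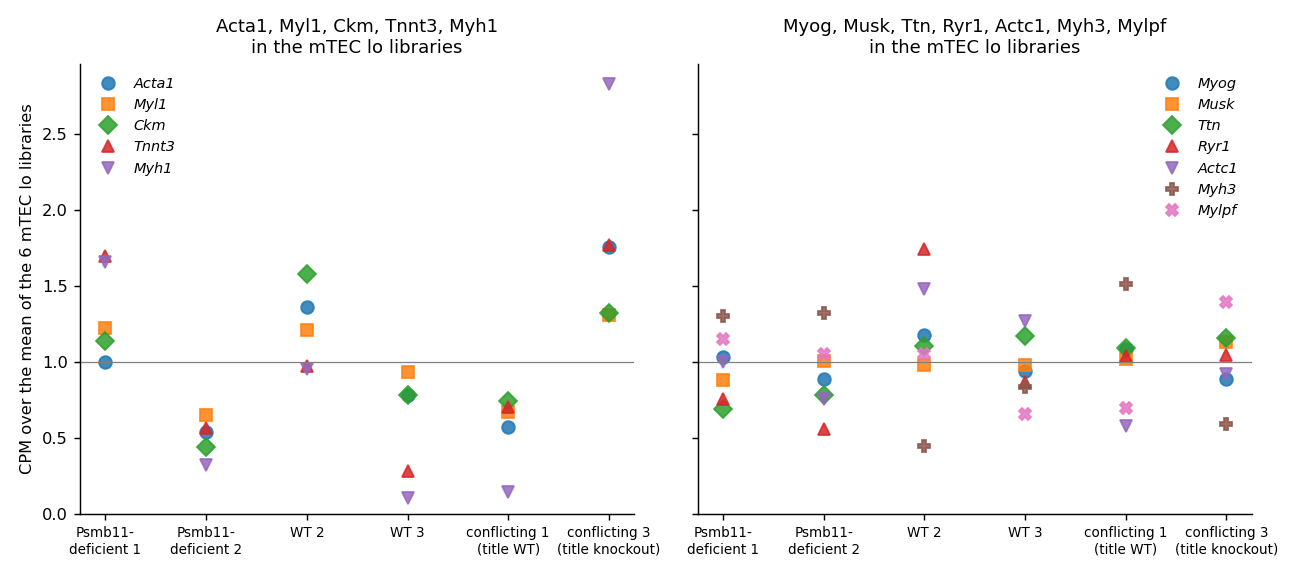
CPM of single genes divided by their mean over the 6 mTEC lo libraries (y axis) for each library (x axis). In the left panel Acta1, Myl1, Ckm, Tnnt3 and Myh1 have their 3 highest values in Psmb11-deficient 1, WT 2 and conflicting 3, with Myh1 at 2.83 times its mean in conflicting 3; in the right panel Myog, Musk, Ttn, Ryr1, Actc1, Myh3 and Mylpf do not share that order.

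The genes with the most similar pattern over all 12 libraries were found by the root mean square difference of log2 CPM, each gene centred on its mean, among 15773 named genes whose mean reached 1 CPM. For Acta1 the nearest was Myl1 (0.39), and for Tnnt3 it was Tnnt1, slow troponin T (0.30), which is also a muscle gene. The nearest to Ttn was Thsd7b (0.12) and then Acacb (0.15), to Musk Xdh (0.086) and Cplx2 (0.087), to Myog Tstd2 (0.077) and Trmt44 (0.079). Ckm was nearest Adamts4 (0.25) and Rab3il1 (0.27), Actc1 Tmem132b (0.26) and Aoc3 (0.26), and Ryr1 Il23r (0.23) and Sorcs3 (0.23). The second nearest were Cyp4a12b for Acta1 (0.46), F13a1 for Tnnt3 (0.33) and Rtn4r for Myl1 (0.21), and Myod1 was under the level minimum. Among the members themselves the nearest pairs were Myog with Myl1 (0.32), Actc1 with Ryr1 (0.39) and Acta1 with Myl1 (0.39).

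The series was made to compare Psmb11-deficient with WT mice, and no member passed the test for genotype in either cell type. In mTEC hi 0.00375% of 26642 genes tested were called, which was Psmb11 alone (0 genes without the mTEC hi libraries Psmb11-deficient 1 or WT 2, and 2 without Psmb11-deficient 2), and in mTEC lo 0.015%, 4 genes (0.0113% as lower). The test used 2 against 2 libraries per cell type with a spread shared by 4 groups. At an unadjusted p under 0.05, 1 member stood out in mTEC hi (3.45% of all genes) and 3 in mTEC lo (11.3% of all genes). Of the 10 log2 fold changes in mTEC hi 7 lay below 0, between -0.45 (Acta1) and 0.36 (Myod1).

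Ttn came nearest to a call in mTEC lo. Psmb11-deficient libraries had 18.4 and 20.9 CPM, against 29.5 and 31.1 CPM for WT, with a log2 fold change of -0.63 (SE 0.10, edgeR adjusted p = 0.070). The groups did not overlap, which says little with 2 against 2 libraries, since the share of all genes that did so was not counted. The conflicting libraries had 29.0 CPM (title WT) and 30.9 CPM (title knockout). DESeq2, which called 0.611% of 21273 genes, gave Ttn an adjusted p of 6.6e-05. The adjusted p by edgeR was 0.033 and 0.0061 without the mTEC lo libraries Psmb11-deficient 1 and 2. The number of genes called in mTEC lo was 263 and 323 without these libraries, 18 and 22 without WT 2 and WT 3 of mTEC lo, and 1 without WT 2 or WT 3 of mTEC hi. With 12 libraries and the genotype of the title the log2 fold change was -0.36 (adjusted p = 0.29), and with that of the source name -0.42 (0.46). In mTEC hi the Ttn values were 158 and 158 CPM for Psmb11-deficient libraries, against 204 and 178 CPM for WT (-0.27, SE 0.10, edgeR adjusted p = 1.0). That difference was -0.17 without the mTEC hi library WT 2 and -0.11 with the genotype of the title.

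Ryr1 had 2.06 and 1.52 CPM in the Psmb11-deficient mTEC lo libraries and 4.77 and 2.38 CPM in the WT ones (log2 fold change -0.99, SE 0.28, edgeR adjusted p = 0.25). For Ryr1 it was -0.43 without the mTEC lo library WT 2, -1.39 without WT 3, and -0.64 over 12 libraries with the genotype of either the title or the source name. Actc1 had 3.03 and 2.28 CPM in Psmb11-deficient and 4.46 and 3.83 CPM in WT mTEC lo (-0.65, SE 0.22, edgeR adjusted p = 0.31), and the log2 fold change was -0.32 with the genotype of the title. Neither passed. The groups did not overlap, but 2 against 2 libraries can separate by chance, and the share of all genes that did so was not counted. Besides Myod1, which had too few reads for a fold, Tnnt3 was the member with a positive value in mTEC lo. It had 1.09 and 0.363 CPM in Psmb11-deficient against 0.625 and 0.181 CPM in WT libraries (log2 fold change 0.85, SE 0.51, edgeR adjusted p = 0.55). The log2 fold change of Tnnt3 ranged from -0.16 without Psmb11-deficient 1 to 1.98 without WT 2 of mTEC lo. Myod1 had 1 read in each Psmb11-deficient and none in each WT mTEC lo library, under the floor of 3 reads, so no fold is given. The difference of the genotype effects between mTEC hi and mTEC lo was called for none of 26642 genes by edgeR (0.0%; 1174, or 4.41%, at an unadjusted p under 0.05, 1 of the 10 members among them, and 10 by DESeq2). For Ttn that difference was 0.37 (SE 0.14, edgeR adjusted p = 1.0).

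Markers of other cells varied between these libraries too. Hba-a1, a red cell globin, was called higher in Psmb11-deficient mTEC lo (log2 fold change 5.84, edgeR adjusted p = 0.021). It was near the floor there, with 105 reads over the 6 mTEC lo libraries and at most 0.673 CPM. Alas2 of the same list was at -0.17 (edgeR adjusted p = 0.84). The sum of the 9 genes of other blood cells was 36.6 and 34.0 CPM in Psmb11-deficient and 36.0 and 32.1 CPM in WT mTEC lo. The thymocyte sum was 79.0 and 53.1 CPM in Psmb11-deficient and 34.6 and 31.0 CPM in WT mTEC lo. Their part in the Ttn, Ryr1 and Actc1 values was not tested.

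**Figure D5:**
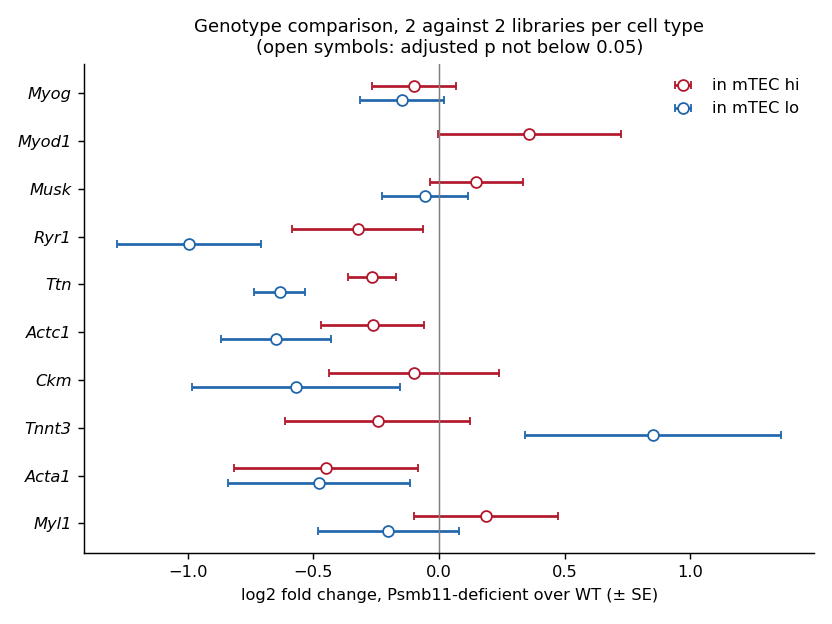
Log2 fold change of Psmb11-deficient over WT libraries (x axis) with its standard error for each gene in mTEC hi (red) and mTEC lo (blue), 2 against 2 libraries each; Myod1 in mTEC lo is left out because it had 2 reads against 0. All points are open, since none passed the adjusted threshold; the values farthest below 0 are those of Ryr1 (-0.99), Actc1 (-0.65) and Ttn (-0.63) in mTEC lo.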

How the data were processed

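Per the file headers and labels, the authors deposited a whole-number read count per gene for each library, ignoring strand and for each strand, and RSEM expected counts with TPM. STAR 2.5.1b, RSEM 1.2.28 and CASAVA 1.8.2 are named, per the submitters' processing notes, as is build GRCh38, although the identifiers are mouse. The annotation used upstream was not given. Of 50600 identifiers, 50376 were matched by stable identifier to GENCODE M21 (GRCm38). Reads without a gene (7.42% to 15.8% of the total) stayed out of library sizes.

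The deposited counts that ignore strand were tested in R 4.3.3 with edgeR 4.0.16 (filterByExpr with count minimum 10 and total minimum 15, TMM, quasi-likelihood F test, Benjamini-Hochberg over all genes, threshold 0.05). The comparison of mTEC hi with mTEC lo took 12 libraries and label class as covariate (8 residual degrees of freedom), and genotypes in 4 groups over 8 libraries (4 residual degrees of freedom). All 10 members passed the filter. Standard errors are the log2 fold change divided by the square root of F. Expected counts, rounded, and DESeq2 1.42.0 served as alternatives, and the sum of the strand columns as one chosen after seeing the data. The fits were tested on simulated data.

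The members, lists and rules were chosen with earlier results of these data known. Named list genes are the 2 with the highest mean CPM and the 2 with the largest called change at a mean of at least 1 CPM, plus Pax7, Myf5, Chrna1 and Mymk; 2 genes that these rules pick are not reported here.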

Additional observations from a re-analysis of the deposited data

Results flagged for a closer look

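Of 20 sets of 6 libraries (10 genes in 2 cell types), 2 held a library far from the others by Dixon's test, which chance alone flags in about 1 set in 20. Acta1 in mTEC hi stood at 9.11 CPM in the library WT 2, with the next highest at 4.85 CPM. Musk in mTEC hi stood at 5.29 CPM in the library Psmb11-deficient 2, with the next highest at 4.29 CPM.

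Tnnc2, fast troponin C, had 3 reads in the count column that ignores strand and 725 reads in the sum of the strand columns over the 12 libraries, so the main comparison did not test it. By the strand columns it averaged 1.26 ± 0.53 CPM in mTEC hi, against 0.651 ± 0.384 CPM in mTEC lo (n = 6 each, ± SD), and in mTEC lo it was highest in conflicting 3 (1.10 CPM) and Psmb11-deficient 1 (1.09 CPM).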

How the results depend on the processing

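The 7 members called between mTEC hi and mTEC lo kept direction and call under all 20 alternatives, 12 of which left out 1 library. Among them is Myod1, which passed the filter through mTEC hi alone and so had to differ. That Myod1 kept its call therefore says little. The median log2 fold change of all genes was 0.37 when counts were scaled by library size alone, against 0.08 with TMM. There Myog was at 0.13 and Tnni3 at 0.092, opposite in sign to the values with TMM. Members called lower numbered 3 with no filter and 2 with a replicate block of paired titles (Acta1, adjusted p = 0.041, besides Musk), and 1 to 3 when 1 library was left out. The mTEC hi and mTEC lo libraries whose titles share number and genotype correlated in their deviations at 0.013 to 0.22 across 17636 genes, not all above 0.1. Of the 6 mTEC hi libraries, 3 correlated best with the mTEC lo library of the matching title. How many would do so by chance was not worked out. These values do not settle whether the libraries are paired, and the block stayed an alternative.

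Genotype counts moved most. In mTEC hi, genes called numbered 3 by DESeq2, 42 with no filter, 3 with RSEM counts, 0 with the genotype of the source name and 0 to 2 with 1 library left out. In mTEC lo they numbered 9 by library size alone, 130 by DESeq2, 660 with no filter, 45 with a replicate block of title number, 2 with the source name and 1 to 323 with 1 library left out. Members called lower in mTEC lo numbered 1 by library size alone, 1 by DESeq2, 2 with no filter (Ttn and Ryr1) and 0 to 1 with 1 library left out. The difference of the genotype effects was called for 10 genes by DESeq2, 141 with no filter, 2 with RSEM counts, 7 with the block and 0 to 49 with 1 library left out.

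Some genotype log2 fold changes changed sign. In mTEC hi these were Myl1 (-0.11 with RSEM counts, -0.22 with the block), Tnnt3 (0.0077 with the source name), Ckm (0.13) and Acta1 (0.28) without the mTEC hi library WT 2, and Musk (-0.11) without Psmb11-deficient 2. In mTEC lo they were Acta1 (0.27), Myl1 (0.17) and Musk (0.021) with the title genotype, Myog (0.00070) and Tnnt3 (-0.0048) with the source name, Musk (0.15) with the block, Ckm (0.0037) and Myog (0.00050) without WT 2, Myl1 (0.18) without Psmb11-deficient 2, and Tnnt3 (-0.16) and Musk (0.046) without Psmb11-deficient 1. With 1 library left out, the other ends of the ranges were -0.29 (Ckm), -0.90 (Acta1) and 0.38 (Musk) in mTEC hi and -1.41 (Ckm), -0.28 (Myog), -0.72 (Myl1), 1.98 (Tnnt3) and -0.15 (Musk) in mTEC lo. None of the values that changed sign was called. The cause was not tested. Depth limits Myod1 in mTEC lo, which rests on 4 reads.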

Other observations

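Of the 10 cardiac genes tested 9 were called higher in mTEC hi by edgeR (44.2% of all genes tested), with a median log2 fold change of 3.61. However, 3 of the 10 (Nppa, Tbx5 and Hand2) passed the filter on low counts through mTEC hi alone and so had to differ. Mybpc3, cardiac myosin binding protein C, averaged 27.3 ± 1.48 CPM in mTEC hi, against 0.194 ± 0.061 CPM in mTEC lo (log2 fold change 7.14), Tbx5, a heart and limb transcription factor, 10.7 ± 1.5 CPM in mTEC hi, against 0.0638 ± 0.0478 CPM in mTEC lo (7.35), and Tnnt2, cardiac troponin T, 98.9 ± 10.6 CPM in mTEC hi, against 12.5 ± 1.43 CPM in mTEC lo (2.98; ± SD over 6 libraries each). Tnni3, cardiac troponin I, was not called at 16.9 ± 1.57 CPM in mTEC hi, against 19.3 ± 2.63 CPM in mTEC lo (-0.19, edgeR adjusted p = 0.055), and it was at 0.09 when counts were scaled by library size alone. Its adjusted p was between 0.0089 and 0.040 without the mTEC hi library WT 3 or the mTEC lo libraries Psmb11-deficient 2, WT 2, WT 3 or conflicting 3.

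The smooth muscle list was mixed, with 4 of 9 genes called higher and 5 lower (44.2% and 38.0% of all genes tested). Of the 9, 1 gene, Myocd, passed the filter through mTEC hi alone. Cnn1, calponin, averaged 13.1 ± 1.46 CPM in mTEC hi, against 0.162 ± 0.077 CPM in mTEC lo (log2 fold change 6.32; ± SD over 6 libraries each), while Acta2 was lower (-3.72). Tagln, transgelin, was lower by the main counts (-3.76) and by the strand columns (-4.21), which held 115 times as many reads for it. Myh11, the smooth muscle myosin, was at 310 ± 14.7 CPM in mTEC hi, against 275 ± 43.5 CPM in mTEC lo (0.18, edgeR adjusted p = 0.040, and 0.47 on the log2 scale with library size alone), and this call was lost, with adjusted p between 0.051 and 0.15, in 8 of the 12 fits that left out 1 library: any of mTEC hi but conflicting 1, or Psmb11-deficient 1, WT 3 or conflicting 1 of mTEC lo.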
